A study of Homo sapiens with 54 samples.

Results

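Whole Compound Kushen Injection (CKI) was compared with mixtures of its own purified main components after 48 h in MDA-MB-231 cells, a line long grown in culture that derives from a breast tumor. CKI is an extract of medicinal roots that holds many compounds. The mixture called OO held only oxymatrine (Omt) and oxysophocarpine (Ospc), 2 alkaloids of the extract, and the mixture called MOO held macrozamin (Mac), a glycoside, as well as these alkaloids. The comparison took 9 of the 54 libraries of the series, 3 each of CKI, OO and MOO at 48 h in the first batch of the labels, and set the mean of OO and MOO against CKI. The members were chosen by treatment, time and batch and not by any measured value. CKI was given at 2 mg/ml and each mixture at the amount equivalent to 2 mg/ml of CKI, so the compounds of OO and MOO are also in CKI. The amount of each compound reaching the cells was not measured in these libraries. The 3 untreated (UT) libraries of the same time and batch show on which side of untreated cells each treatment lay. The design text calls the 3 libraries of a group biological replicates, and all of them came from 1 cell line.

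Several of the responses described here have well known parts. When unfolded proteins build up in the endoplasmic reticulum (ER), cells raise ER chaperones through ATF6 and XBP1, and the kinase PERK, through the factor ATF4, raises genes for amino acid supply and the factor CHOP (gene DDIT3). The aryl hydrocarbon receptor (AHR) binds plant-derived and other aromatic compounds and drives cytochrome P450 genes such as CYP1A1. Low sterol in the ER activates SREBP2 and with it the genes of cholesterol synthesis, whereas high oxysterol activates LXR and with it the cholesterol exporters ABCA1 and ABCG1.

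Reads counted on genes came to between 21124745 and 26138924 in the 9 libraries, with a median of 23263036. Libraries of 1 group were alike, with correlations of log2 levels between 0.993 and 0.995, OO and MOO libraries correlated at 0.993, and mixture and CKI libraries at 0.966 to 0.975. No pair of libraries differed by as little as sampling noise. The list of genes that MDA-MB-231 cells are known to express summed to between 4216 and 4276 CPM (reads of a gene per 1000000 reads) with CKI and to between 4548 and 4890 CPM with the mixtures, against 5600 to 5734 CPM in UT. All 8 markers of HEK-293 cells, another line that the study grew, stayed under 10 counts in every library. The 9 fibroblast markers summed to 46.8 to 52.6 CPM with CKI, 28.7 to 33.5 CPM with the mixtures and 71.2 to 74.3 CPM in UT, and their part in the results was not tested.

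CKI and the mixtures left the cells in widely different states. Of 14926 genes tested at 48 h with edgeR's quasi-likelihood test, 9586 (64.2%) differed between the mixtures and CKI at an adjusted p-value under 0.05, 4877 (32.7%) higher with the mixtures and 4709 (31.5%) lower. Many differences were small, since the replicates were tight, with a common coefficient of biological variation of 0.0502. A change of 2-fold or more (1 on the log2 scale) was met by 1412 of the called genes (9.46% of those tested), 582 higher (3.90%) and 830 lower (5.56%). For each mixture by itself, 9173 genes (61.5%) differed between OO and CKI and 8587 (57.5%) between MOO and CKI. Relative to UT, 63.5% of genes were called with CKI (31.3% higher, 32.2% lower) and 68.7% with the mixtures (34.3% higher, 34.4% lower). Of the genes called higher or lower, 49.3% were higher with CKI and 49.9% with the mixtures, and scaling by library sizes alone moved these shares to 59.2% and 60.5%. At least 2-fold from UT, 1694 genes (11.3%) changed with CKI, 994 up and 700 down, and 1929 (12.9%) changed with the mixtures, 977 up and 952 down. In RNA from whole cultures, a change in the share of cells in some state and a change in RNA per cell cannot be told apart.

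Named genes and gene lists are given relative to CKI unless UT is named, and the median log2 difference over all genes tested was 0.0072. Counts of list members at 48 h are read beside the shares over all genes, 32.7% higher and 31.5% lower. Counts against UT are read beside the shares against UT given above. The 12 genes that lay farthest above CKI among well expressed genes were HSPA6, KRT34, IL24, ABCA1, DDIT3, HSPA5, CXCL8, LCN2, KCP, HERPUD1, BEX2 and NUPR1. The 12 farthest below were ANGPTL4, CYP1A1, ITGA10, CST1, SLCO4A1, CST4, SERPINA1, AKR1C2, FBXO2, SECTM1, TM7SF2 and AKR1C1. Each of these 24 was called in the same direction for OO and for MOO, as the choice required, with log2 fold changes of up to 4.56 above and down to -3.46 below.

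**Figure D1:**
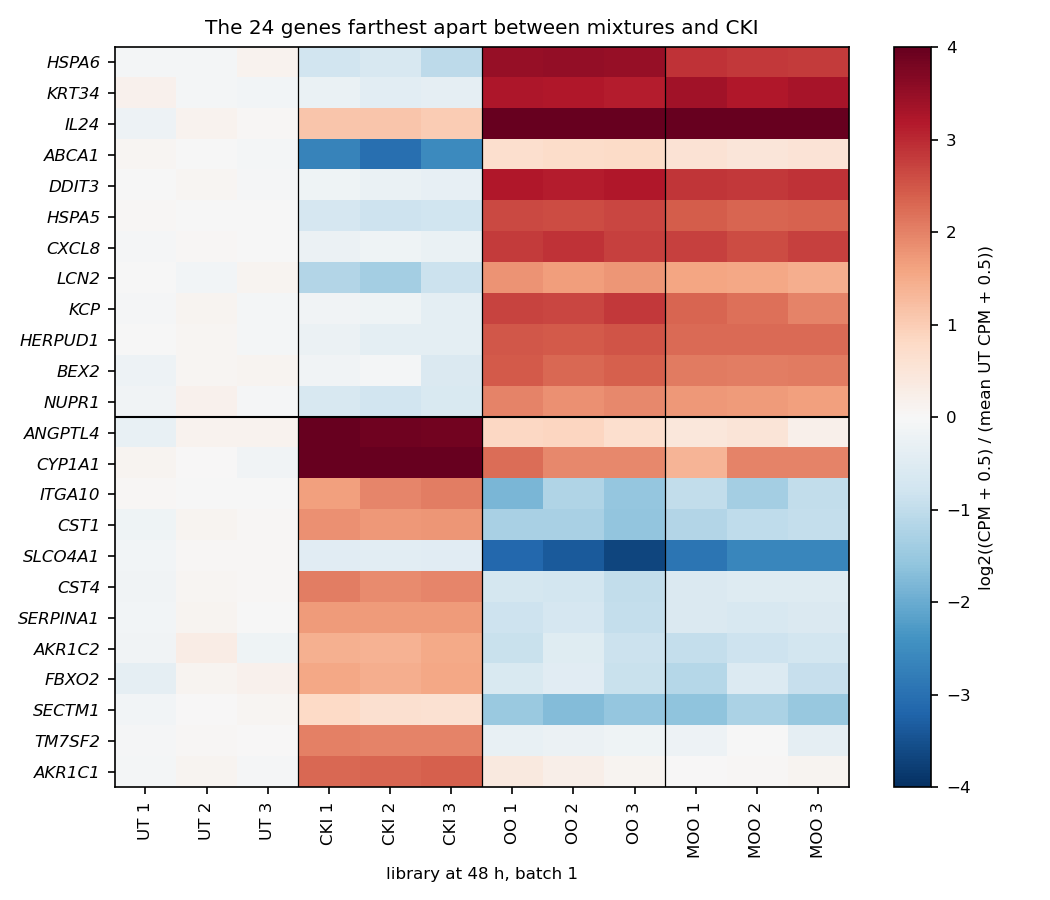
Levels of the 24 genes farthest apart between the mixtures and CKI, as log2 of (CPM + 0.5) over (mean UT CPM + 0.5), in each of the 12 libraries at 48 h, with the color scale ending at -4 and 4. The 6 mixture columns are red over the upper 12 genes and near white or blue over most of the lower 12, where the 3 CKI columns are red except for SLCO4A1.

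The largest group difference in favor of the mixtures was in the ER stress response. All 16 ER chaperone and folding genes of the list rose above CKI (background 32.7%), with a median log2 difference of 1.60, and all 16 also rose above UT, with a median of 1.39. With CKI itself 3 of them rose and 10 fell relative to UT, with a median of -0.24. HSPA5, which encodes the main ER chaperone BiP, stood at 820, 752 and 764 CPM in the CKI libraries and at 1367, 1292 and 1303 CPM in UT. In the OO libraries it was at 8174, 7997 and 8367 CPM and in the MOO libraries at 7071, 6692 and 6747 CPM. The groups did not overlap, and CKI lay below UT while both mixtures lay far above it. The mean level was 9.64 times that of CKI, a log2 difference of 3.26 ± 0.047 (SE, adjusted p = 1.5e-23).

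Other members moved in the same direction with smaller steps. HSP90B1, the ER form of HSP90, rose from 555 ± 38.3 CPM (SD, n = 3) with CKI to 2551 ± 101 with OO and 2379 ± 139 with MOO (SD, n = 3 each). HERPUD1, which takes part in the removal of misfolded ER proteins, had a log2 difference of 2.72 ± 0.051, and SDF2L1, part of an ER chaperone complex, had one of 2.16 ± 0.063. HYOU1, a large ER chaperone, and PDIA4, a disulfide isomerase, differed by 2.12 and 1.89 on the log2 scale. The calcium-binding chaperones CALR and CANX differed least of those named, by 0.66 ± 0.041 and 0.97 ± 0.043.

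Promoters of these genes are known for the ER stress response element (ERSE), CCAAT and CCACG with 9 bases between them, which was searched on both strands of RefSeq promoters (build GRCh38.p14, 250 bases before to 50 after the start). The motif was chosen after the values of these genes were seen. It was found in 22 of 27305 promoters (0.0806%) and in 6 of the 16 promoters of the ER chaperone list (37.5%), those of HSPA5, HSP90B1, CALR, CRELD2, XBP1 and CANX. Of the 22 genes, 14 were tested at 48 h, and 12 of these were higher with the mixtures (background 32.7%). TMEM120A was lower and ZNF17 was not called. The 6 genes of the ER chaperone list were among the 12, and their rise was known before the motif was chosen. The count is therefore no independent support. The 4 promoters printed here, 5′ to 3′ on the gene's strand with the fixed bases of the ERSE in capitals, belong to chaperone genes with large and small differences. CRELD2, an ER folding factor, rose from 15.0 ± 0.824 CPM with CKI to 38.5 ± 2.79 with OO and 37.9 ± 0.670 with MOO (SD, n = 3 each).
HSPA5 promoter, chr9:125241294-125241593, minus strand: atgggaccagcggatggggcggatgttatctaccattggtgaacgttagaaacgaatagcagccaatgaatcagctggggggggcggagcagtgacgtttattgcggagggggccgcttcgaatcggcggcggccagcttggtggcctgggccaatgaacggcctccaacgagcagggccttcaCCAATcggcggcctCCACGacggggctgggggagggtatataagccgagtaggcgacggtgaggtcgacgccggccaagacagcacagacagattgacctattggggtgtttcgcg
HSP90B1 promoter, chr12:103930160-103930459, plus strand: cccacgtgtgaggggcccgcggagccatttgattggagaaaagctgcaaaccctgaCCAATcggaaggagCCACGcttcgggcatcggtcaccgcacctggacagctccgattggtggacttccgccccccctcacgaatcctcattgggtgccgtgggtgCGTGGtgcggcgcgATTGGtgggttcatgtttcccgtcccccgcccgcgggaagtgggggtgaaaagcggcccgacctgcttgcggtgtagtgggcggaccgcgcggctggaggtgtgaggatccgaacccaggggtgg
CALR promoter, chr19:12938359-12938658, plus strand: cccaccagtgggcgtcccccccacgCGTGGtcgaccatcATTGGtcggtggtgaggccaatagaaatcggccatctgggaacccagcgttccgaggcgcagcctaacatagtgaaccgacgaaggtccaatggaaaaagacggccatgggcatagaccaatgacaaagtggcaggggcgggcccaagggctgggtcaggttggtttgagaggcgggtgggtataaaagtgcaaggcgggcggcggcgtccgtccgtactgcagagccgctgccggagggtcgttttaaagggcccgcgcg
CRELD2 promoter, chr22:49918384-49918683, plus strand: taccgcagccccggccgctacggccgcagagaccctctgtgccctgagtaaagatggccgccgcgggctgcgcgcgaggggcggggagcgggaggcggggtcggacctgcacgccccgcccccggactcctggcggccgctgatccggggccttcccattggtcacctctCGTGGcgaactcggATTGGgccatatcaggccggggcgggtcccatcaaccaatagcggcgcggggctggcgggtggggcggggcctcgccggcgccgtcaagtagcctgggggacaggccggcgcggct
A match is a description of these letters and not a measured binding site. HSP90B1 held 2 matches, 1 on each strand, and the other 3 promoters held 1 each.

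**Figure D2:**
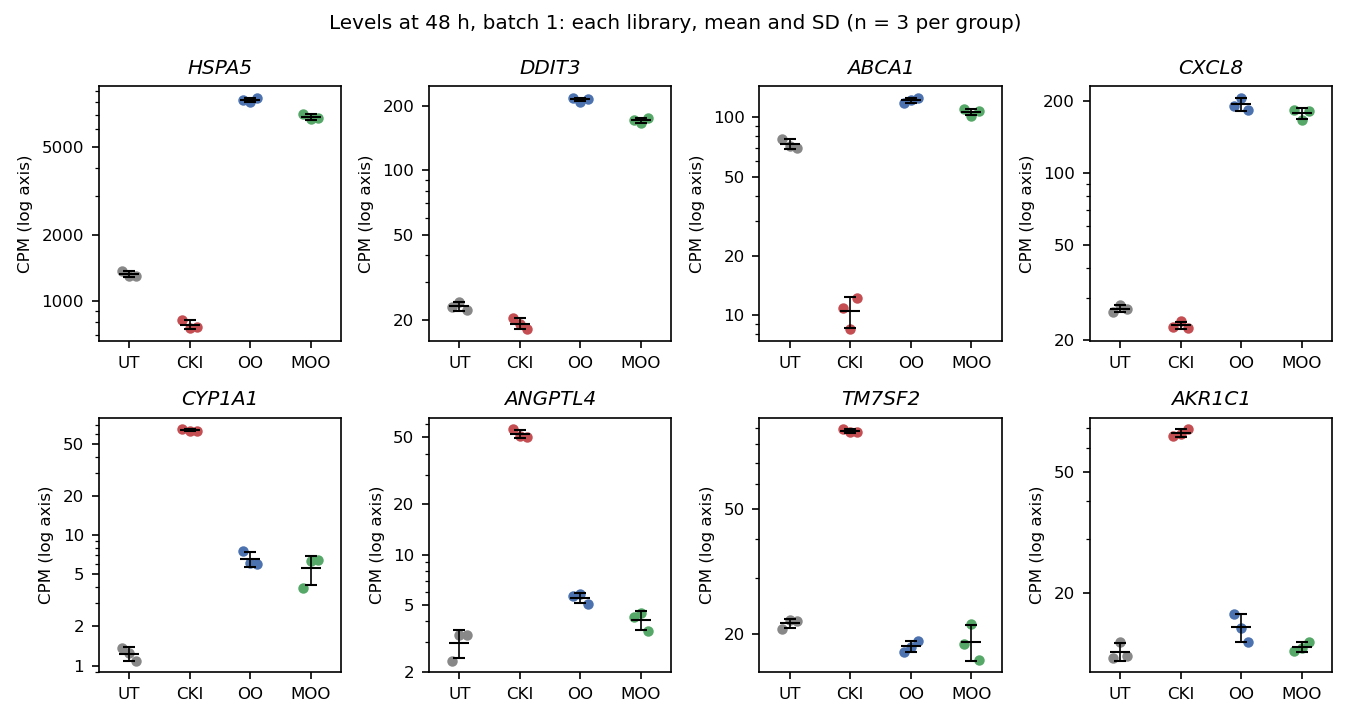
Level in CPM (log axis) of 8 genes in each library of UT, CKI, OO and MOO at 48 h in batch 1, with the mean and SD of 3 libraries. HSPA5, DDIT3 and CXCL8 are far above UT with both mixtures and at or below it with CKI, ABCA1 is low with CKI, and CYP1A1, ANGPTL4, TM7SF2 and AKR1C1 are high with CKI.

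Genes of the ATF4 and CHOP branch moved with the chaperones. Of 19 tested, 17 rose above CKI (background 32.7%) and 1 fell, with a median of 1.61, and relative to UT the median was 1.43 with the mixtures and -0.14 with CKI. DDIT3, the gene of CHOP, stood at 20.5, 19.1 and 18.2 CPM with CKI and at 23.0, 24.4 and 22.2 CPM in UT. It was at 216, 208 and 215 CPM with OO and at 172, 166 and 175 CPM with MOO, with no overlap between groups. Its log2 difference from CKI was 3.31 ± 0.053 (adjusted p = 7.6e-23), and it fell by 0.27 from UT to CKI. TRIB3, a pseudokinase induced by CHOP, differed by 2.47 ± 0.058, and SESN2, a stress-induced inhibitor of mTORC1 signaling, differed by 2.24 ± 0.057. NUPR1, a small stress-induced nuclear protein that is not in this list, was at 16.4 ± 1.05 CPM with CKI, 101 ± 5.01 with OO and 86.2 ± 3.54 with MOO (SD, n = 3 each).

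Genes of amino acid supply were among them. PHGDH and PSAT1, the first steps of serine synthesis, differed by 1.97 ± 0.079 and 1.61 ± 0.045, and PHGDH fell with CKI to 5.64 ± 0.0987 CPM from 13.9 ± 0.776 in UT (SD, n = 3 each). SLC7A11, the cystine importer, rose in both arms, from 34.0 ± 5.23 CPM in UT to 73.7 ± 2.03 with CKI, 252 ± 20.5 with OO and 225 ± 19.1 with MOO (SD, n = 3 each). ATF4 itself differed by 0.93 ± 0.042. Of 18 cytosolic tRNA synthetases, which load amino acids onto tRNAs, 15 rose and 3 fell (background 32.7% and 31.5%), with a median of 0.72. The largest of these was WARS, at 1.92 ± 0.047, and IARS and GARS differed by 1.24 and 1.19.

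Heat shock protein genes were higher with the mixtures than with CKI in 10 of 13 cases and lower in 1 (background 32.7% and 31.5%), with a median of 0.34. Relative to UT, 12 fell and none rose with CKI, with a median of -0.26. With the mixtures 5 rose and 5 fell from UT, with a median of 0.03. HSPA6, a strictly inducible HSP70 that is not in this list, was at 0.912, 1.05 and 0.656 CPM with CKI. It was at 26.1, 26.7 and 25.9 CPM with OO and at 17.0, 16.5 and 16.0 CPM with MOO. It differed from CKI by 4.56 ± 0.118 (adjusted p = 1.9e-19), and it was also lower with MOO than with OO, by a log2 difference of -0.67 ± 0.077. HSPA1A, which shares near-identical sequence with HSPA1B so that reads can be split between them, differed by 1.61 ± 0.050.

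Cholesterol export and cytokine genes followed. ABCA1, the main cholesterol exporter, stood at 10.9, 8.48 and 12.2 CPM with CKI, at 77.6, 71.6 and 69.5 CPM in UT, at 117, 122 and 125 CPM with OO and at 109, 102 and 107 CPM with MOO. CKI thus lay below every other library and the mixtures above every other one. ABCG1, a related exporter, and MYLIP, a ubiquitin ligase induced by LXR, differed by 2.68 ± 0.133 and 1.68 ± 0.066. Of the 9 LXR targets tested, 5 rose and 2 fell (background 32.7% and 31.5%), so the list did not move as a whole. Among 17 cytokine and chemokine genes 9 rose and 5 fell (background 32.7% and 31.5%). CXCL8, the neutrophil chemokine IL-8, was at 22.7, 24.0 and 22.3 CPM with CKI and between 166 and 206 CPM in the 6 mixture libraries, a log2 difference of 3.01 ± 0.056. IL24, a cytokine of the IL-10 family, rose in both arms, from 3.06 ± 0.427 CPM in UT to 7.05 ± 0.283 with CKI, 102 ± 2.46 with OO and 65.5 ± 0.652 with MOO (SD, n = 3 each). CXCL2, another chemokine, differed by 1.97 ± 0.083 and PTGS2, the inducible cyclooxygenase, by 2.01 ± 0.158.

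A difference of another kind was seen in genes of ribosomes, where CKI moved and the mixtures stayed nearer to UT. All 30 ribosomal protein genes were higher with the mixtures than with CKI, with a median of 0.46, and all 30 fell from UT with CKI, with a median of -0.57. With the mixtures 3 of them rose, 12 fell and 15 were not called relative to UT, with a median of -0.08. RPL3, a large-subunit protein, was at 602, 526 and 530 CPM with CKI, 1157, 1283 and 1272 CPM in UT and between 977 and 1032 CPM in the mixture libraries. Of 19 ribosome biogenesis genes 17 were higher and none was lower with the mixtures (edgeR's quasi-likelihood test), with a median of 0.62. UTP20, of the small-subunit processome, differed by 1.22 ± 0.092, and MYC, which drives ribosome production, by 1.01 ± 0.055.

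**Figure D3:**
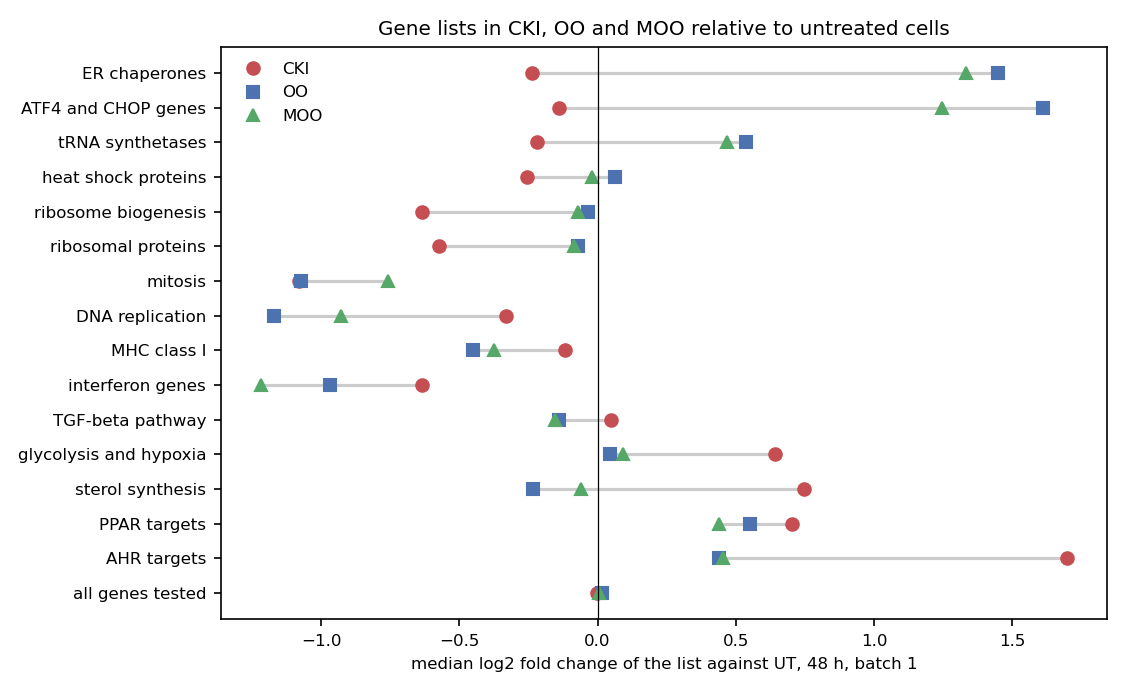
Median log2 fold change against UT at 48 h of 15 gene lists and of all genes tested, for CKI (circles), OO (squares) and MOO (triangles). The medians of OO and MOO lie close to each other in most lists and apart from CKI, except for mitosis, where OO lies on CKI, with the ER chaperones, ATF4 and CHOP genes on one side and the AHR targets and sterol synthesis genes on the other.

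Responses that CKI gave and the mixtures gave weakly or not at all were led by AHR targets. Of 7 tested, all rose from UT with CKI, with a median of 1.70, and 5 rose with the mixtures, with a median of 0.45. Relative to CKI, 5 were lower with the mixtures and 1 was higher (background 31.5% and 32.7%). CYP1A1, the classical AHR target, stood at 1.37, 1.25 and 1.09 CPM in UT, at 65.0, 62.6 and 63.3 CPM with CKI, at 7.59, 6.09 and 6.01 CPM with OO and at 3.97, 6.35 and 6.40 CPM with MOO. The mixtures thus lay above UT, by a log2 difference of 2.28 ± 0.172, and below CKI, by -3.40 ± 0.083 (adjusted p = 6.8e-20). CYP1B1, another AHR-induced P450, rose from 118 ± 4.86 CPM in UT to 563 ± 10.8 with CKI, against 159 ± 1.41 with OO and 161 ± 3.04 with MOO (SD, n = 3 each). TIPARP, a feedback repressor of AHR, was closer between arms, with -0.42 ± 0.055, and AHRR, another one, was not called, at -0.18 ± 0.140. The core of the AHR element, GCGTG, occurred once in the RefSeq promoter of CYP1A1, shown with the match in capitals. The motif is short and was found in 36.3% of all promoters, so it marks no gene by itself.
CYP1A1 promoter, chr15:74725479-74725778, minus strand: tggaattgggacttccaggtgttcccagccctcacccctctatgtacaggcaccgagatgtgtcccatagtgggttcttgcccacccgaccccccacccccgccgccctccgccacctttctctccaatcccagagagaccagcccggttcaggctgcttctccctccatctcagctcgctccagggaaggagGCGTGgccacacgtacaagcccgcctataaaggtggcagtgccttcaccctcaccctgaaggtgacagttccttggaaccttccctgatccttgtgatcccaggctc

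NRF2 targets, which defend against electrophiles and oxidants, split. All but 2 of the 22 genes rose from UT with CKI, and 14 rose and 5 fell with the mixtures. Relative to CKI, 12 were lower and 7 higher with the mixtures (background 31.5% and 32.7%). The aldo-keto reductases carried the largest falls. AKR1C1 was at 65.4, 66.9 and 69.2 CPM with CKI, between 12.8 and 17.0 CPM in the 6 mixture libraries and between 12.2 and 13.8 CPM in UT, a log2 difference of -2.24 ± 0.058. AKR1C2, whose sequence is close to that of AKR1C1 so that the split of reads is uncertain, differed by -2.34 ± 0.10 and AKR1B10 by -2.85 ± 0.113. NQO1, a quinone reductase under both AHR and NRF2, differed by -1.16 ± 0.045, and GCLM, of glutathione synthesis, by -0.59 ± 0.041. SLC7A11, given above, went the other way.

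At 48 h most genes of sterol synthesis were higher than UT with CKI and not with the mixtures. Of 24 tested, 22 rose from UT with CKI, with a median of 0.75, whereas 5 rose and 13 fell with the mixtures, with a median of -0.15. Relative to CKI 22 were lower and 1 was higher (background 31.5% lower), with a median of -0.89. At 24 h the mixtures had 16 of the 24 higher than UT and 1 lower (background 12.0% and 12.5%), with a median of 0.45. TM7SF2, a sterol reductase, stood at 89.5, 87.4 and 87.5 CPM with CKI, between 20.7 and 22.1 CPM in UT and between 16.6 and 21.5 CPM in the mixture libraries, a log2 difference of -2.25 ± 0.056. MSMO1, a sterol oxidase, differed by -1.66 ± 0.037, and EBP, a sterol isomerase, by -1.47 ± 0.046.

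Of 30 glycolysis and hypoxia genes tested at 48 h, 29 were lower with the mixtures than with CKI (background 31.5%), with a median of -0.51. CKI raised 24 of them from UT, with a median of 0.64, and the mixtures raised 12 and lowered 10, with a median of 0.09. At 24 h the mixtures had 23 of the 30 higher than UT and none lower in edgeR's test, with a median of 0.69. CA9, a hypoxia-induced carbonic anhydrase, was at 28.2, 25.4 and 23.9 CPM with CKI, between 5.22 and 8.11 CPM in the mixture libraries and between 4.42 and 7.20 CPM in UT. ALDOC, an aldolase, went from 59.2 ± 0.992 CPM with CKI to 14.5 ± 0.275 with OO and 17.7 ± 0.215 with MOO (SD, n = 3 each). EGLN3, an oxygen sensor, and PFKFB4, a regulator of glycolysis, differed by -1.63 and -1.62. ANGPTL4, a secreted inhibitor of lipoprotein lipase and a target of PPAR and hypoxia factors, stood at 55.9, 51.2 and 50.2 CPM with CKI, at 2.33, 3.31 and 3.32 CPM in UT and between 3.51 and 5.84 CPM in the mixture libraries. Its log2 difference was -3.46 ± 0.076 (adjusted p = 1.5e-20). The PPAR target list did not follow it as a whole, with 5 lower and 3 higher of 10.

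Further genes that were higher with CKI than with the mixtures encode, apart from FOS, secreted and surface proteins. CST1, a cystatin protease inhibitor, was at 1835, 1737 and 1776 CPM with CKI, between 462 and 560 CPM in UT and between 174 and 269 CPM in the mixture libraries, so that CKI and the mixtures lay on opposite sides of UT. Its neighbor in sequence CST4 differed by -2.64 ± 0.053, with reads that could be split between the 2 genes. ITGA10, a collagen-binding integrin chain, rose from 9.65 ± 0.261 CPM in UT to 37.3 ± 5.48 with CKI and was at 3.08 ± 0.748 with OO and 4.22 ± 0.677 with MOO (SD, n = 3 each). SERPINA1, the protease inhibitor alpha-1-antitrypsin, differed by -2.43 ± 0.054, and TIMP1, an inhibitor of matrix metalloproteinases, by -1.92 ± 0.055. FOS, an AP-1 subunit, was at 77.3, 103 and 87.9 CPM with CKI and between 19.5 and 27.3 CPM with the mixtures, whose mean of 23.8 CPM was close to the 23.9 CPM of UT.

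Lists tied to adhesion, matrix and migration, which the published study of CKI followed, are read against a background of 32.7% higher and 31.5% lower. Of 23 focal adhesion and integrin genes 5 were higher and 14 lower with the mixtures, of 27 matrix and protease genes 4 were higher and 17 lower, and of 21 TGF-beta pathway genes 4 were higher and 13 lower. ITGA1, a collagen-binding integrin chain, differed by -1.62 ± 0.083, SMAD6, an inhibitory SMAD, by -1.85 ± 0.126 and BMP4, a growth factor of the family, by -2.04 ± 0.049. TGFB2, a ligand of the pathway, went the other way, at 39.1 ± 3.85 CPM with CKI against 96.8 ± 1.42 with OO and 117 ± 7.40 with MOO (SD, n = 3 each). Of 29 actin cytoskeleton genes 11 were higher and 12 lower with the mixtures than with CKI, with a median of 0.00. Relative to UT, 2 rose and 21 fell with CKI, and 6 rose and 19 fell with the mixtures. Their medians against UT were -0.40 and -0.37. Of the focal adhesion and integrin genes, 8 rose and 10 fell from UT with CKI, and 7 rose and 13 fell with the mixtures. Over all genes, 31.3% rose and 32.2% fell with CKI, and 34.3% and 34.4% with the mixtures. The 13 core migration genes, a list that the study chose with these samples and that is no independent evidence, gave 5 higher and 6 lower than with CKI. Relative to UT, 11 of them were lower with CKI and 11 with the mixtures, and none was higher. CDK4, a cell cycle kinase, differed by 0.44 ± 0.048, and CDH1, E-cadherin, which CKI and the mixtures both lowered from UT, by 0.95 ± 0.206, at 0.893 ± 0.0669 CPM with CKI and 1.73 ± 0.374 over the 6 mixture libraries.

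Interferon-stimulated genes were lower with the mixtures than with CKI in 19 of 27 cases and higher in 5 (background 31.5% and 32.7%). Their median was -0.38, and relative to UT it was -0.64 with CKI and -1.11 with the mixtures. IFI6, a mitochondrial interferon-induced protein, differed by -1.34 ± 0.063 and OAS1, a sensor of double-stranded RNA, by -1.19 ± 0.170. For antigen presentation by MHC class I, 12 of 14 genes were lower and 1 was higher, with TAPBP, which loads peptides, at -1.12 ± 0.044.

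DNA replication genes were lower with the mixtures than with CKI or in UT. All 38 were lower than UT with the mixtures, with a median of -1.05, and with CKI 27 were lower and 4 higher, with a median of -0.33. Relative to CKI 37 of 38 were lower with the mixtures (background 31.5%), with a median of -0.68. MCM5, a subunit of the replicative helicase, was at 129, 138 and 145 CPM in UT, 82.0, 74.0 and 75.0 CPM with CKI, 36.7, 38.1 and 35.8 CPM with OO and 46.3, 51.6 and 51.4 CPM with MOO. E2F1, the factor that drives S-phase genes, was at 228 ± 11.8 CPM with CKI, 80.6 ± 7.31 with OO and 102 ± 9.36 with MOO (SD, n = 3 each), with 202 ± 8.69 in UT. Mitosis genes did not follow. All 40 were lower than UT in both arms, with medians of -1.08 with CKI and -0.93 with the mixtures, and 27 were higher and 6 lower with the mixtures than with CKI. The mixtures differed in this, as 19 were higher and 10 lower with OO (median 0.13), and 31 were higher and 2 lower with MOO (median 0.43). With all 54 libraries in the fit, 17 in place of 27 were called higher. CCNB1, the mitotic cyclin, was at 76.1 ± 2.03 CPM with CKI, 110 ± 5.04 with OO and 135 ± 4.03 with MOO (SD, n = 3 each), against 233 ± 5.33 in UT.

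The same contrast at 24 h, in 9 other libraries, showed which of these differences were already present. At that time 3164 of 14662 genes tested (21.6%) differed, 1619 higher and 1545 lower, with a common coefficient of variation of 0.151. CKI replicate 1 at 24 h stood apart from its group, and the 3 OO libraries at 24 h stood far from each other, OO replicate 1 farthest. Without CKI replicate 1 and OO replicate 1, 4721 genes differed, and without CKI replicate 1 and OO replicate 2, 3575 differed. Leaving out only CKI replicate 2 gave 1912. Of the 582 genes at least 2-fold higher at 48 h, 493 were tested at 24 h and 431 of these (87.4%) had the same sign. Of the 830 at least 2-fold lower, 779 were tested and 662 (85.0%) had the same sign. Among all genes called at 48 h, 69.6% of the higher and 71.8% of the lower ones had it. Of the 493, 224 were called higher at 24 h and 2 lower (background 11.0% and 10.5%). Of the 779, 307 were called lower and 10 higher. Across the 14541 genes tested at both times the log2 differences had a Pearson correlation of 0.555, which describes genes and not replicates.

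The difference between the times was tested in 1 fit of 24 libraries as the 48 h difference minus the 24 h difference, and 3889 of 15187 genes (25.6%) were called, 1877 higher (12.4%) and 2012 lower (13.2%). DNA replication genes reversed relative to CKI. At 24 h 26 of 38 were higher with the mixtures than with CKI and 1 was lower (background 11.0% and 10.5%), with a median of 0.56. Without CKI replicate 1 and OO replicate 1, 25 were higher and 2 lower, and with OO replicate 2 left out in place of OO replicate 1, 24 were higher and 2 lower. All 38 were called lower in the test between times, with a median of -1.20, and 37 were with either pair of libraries left out. Relative to UT at 24 h, none of the 38 was higher with the mixtures and 9 were lower (background 12.0% and 12.5%). The median against UT at 24 h was -0.24. MCM5 stood at 37.8, 81.8 and 83.6 CPM with CKI at 24 h, where the lowest value was that of replicate 1, at 113, 83.7 and 88.7 CPM with OO, where the highest value was that of replicate 1, and at 135, 117 and 113 CPM with MOO. CCNE2, the S-phase cyclin E2, was at 10.2, 12.5 and 11.5 CPM with CKI and between 14.4 and 27.0 CPM with the mixtures at 24 h, and at 48 h at 11.5, 12.9 and 12.6 CPM with CKI and between 4.29 and 7.89 CPM with the mixtures. For mitosis genes 35 of 40 were higher with the mixtures than with CKI at 24 h, and the test between times called 26 lower. Relative to UT at 24 h, none of the 40 was higher with the mixtures and 32 were lower, with a median of -0.55.

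The difference of the ER chaperones from CKI was mostly late. At 24 h 5 of 16 were higher with the mixtures than with CKI (background 11.0%), with a median of 0.19. Without CKI replicate 1 and OO replicate 1, 7 were higher and none was lower. With OO replicate 2 left out in place of OO replicate 1, 5 were higher and 1 lower. Relative to UT at 24 h, 9 of the 16 were already higher with the mixtures and none was lower (background 12.0% and 12.5%), with a median of 0.53. All 16 were called higher in the test between times, with a median of 1.41. HSPA5 was at 1087, 997 and 986 CPM with CKI and between 1280 and 1683 CPM with the mixtures at 24 h. The ATF4 and CHOP genes were earlier, with 12 of 19 higher and none lower at 24 h (background 11.0% and 10.5%). Their median was 0.68, and 11 were called higher between times. DDIT3 was at 33.2, 15.8 and 15.8 CPM with CKI and between 58.8 and 98.9 CPM with the mixtures at 24 h. AHR targets were already apart at 24 h, with 6 of 7 lower (background 10.5%) and a median of -1.19. The test between times called 2 of them higher. CYP1A1 differed by -4.12 ± 0.228 at 24 h. CXCL8, with 3.06 ± 0.184, and ABCA1, with 2.94 ± 0.173, were also apart by then. Of 24 sterol synthesis genes, 5 were higher, 6 lower and 13 not called at 24 h (background 11.0% and 10.5%), and 20 were called lower between times. Of 30 glycolysis and hypoxia genes, 5 were higher, 4 lower and 21 not called at 24 h, and 25 were called lower between times.

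**Figure D4:**
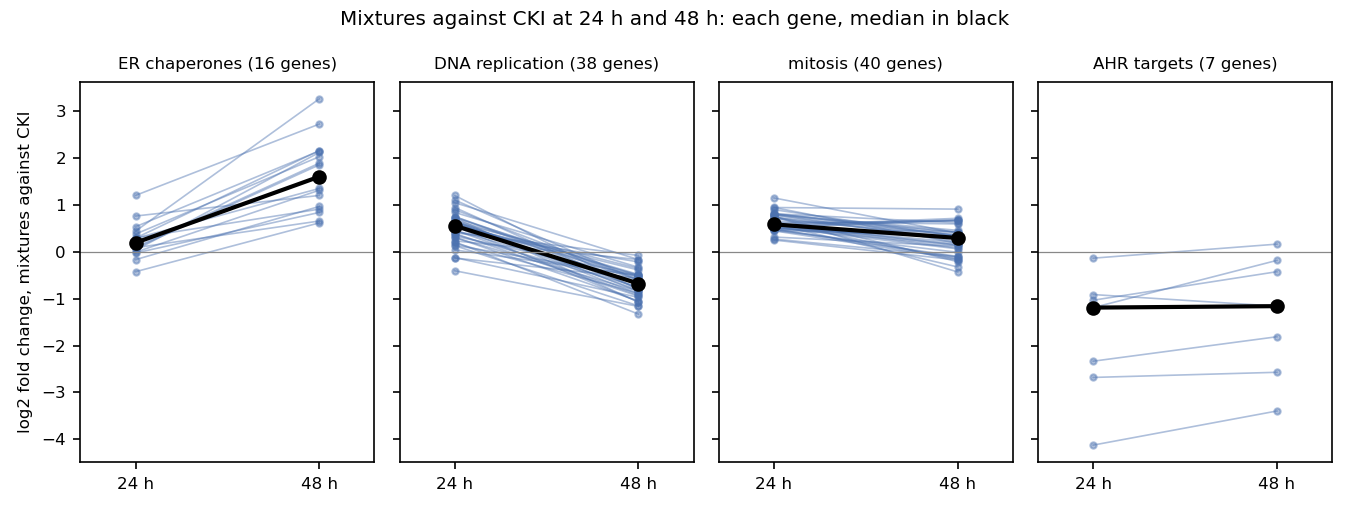
Log2 fold change of the mixtures against CKI at 24 h and 48 h for each gene of 4 lists, with the median of the list in black. DNA replication genes cross from a median of 0.56 to -0.68, ER chaperones rise from 0.19 to 1.60, and AHR targets have medians of -1.19 and -1.16.

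To describe what CKI does without choosing genes on the libraries compared, genes were taken that CKI changed by at least 2-fold in the second batch at 48 h, a batch that shares no library with the first, at a mean of at least 5 CPM. Of 346 genes raised there, 303 (87.6%) were lower with the mixtures than with CKI in batch 1 (background 31.5%) and 14 were higher. Their median log2 difference from UT in batch 1 was 1.10 with CKI, 0.43 with OO and 0.38 with MOO. Of 483 genes lowered there, 353 (73.1%) were higher with the mixtures (background 32.7%) and 66 lower, with medians of -1.05, -0.74 and -0.60. The reverse question used genes that the mixtures changed by at least 2-fold from UT at 24 h. Of 143 raised genes, 85 (59.4%) were higher with the mixtures than with CKI at 48 h (background 32.7%). A further 44 (30.8%) were lower, near the background of 31.5%. Their medians against UT were 0.89 with CKI, 1.35 with OO and 1.22 with MOO. Of 134 lowered genes, 94 (70.1%) were lower with the mixtures and 22 higher (background 31.5% and 32.7%), with medians of -1.16, -1.81 and -1.62. In all 4 sets the medians of CKI, OO and MOO had the same sign.

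**Figure D5:**
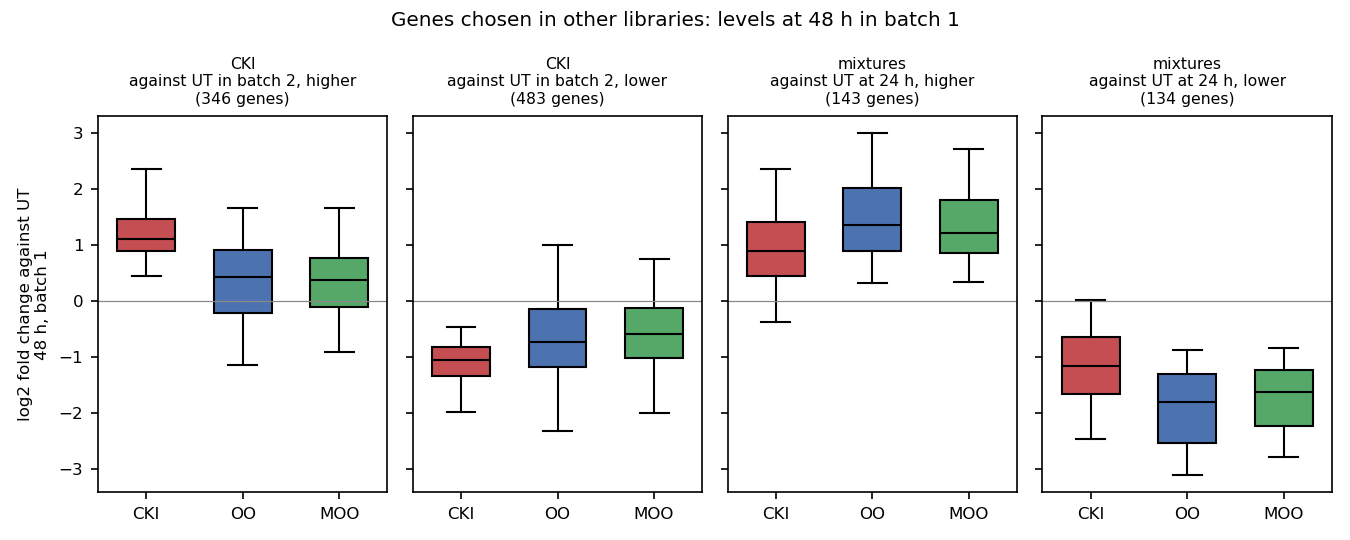
Log2 fold change against UT at 48 h in batch 1 for genes chosen in other libraries, with boxes for the quartiles and median and whiskers from the 5th to the 95th percentile of genes. For the 346 genes that CKI raised in batch 2 the median is 1.10 with CKI, 0.43 with OO and 0.38 with MOO.

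Single genes at the ends of these classes show changes from UT in 1 arm of over 2-fold beside a difference under 0.3 on the log2 scale in the other. With CKI up and the mixtures near UT these were TM7SF2, AKR1C1, FOS, TFF2, CA9, ALDOC, TNFRSF1B and MSMO1. TFF2, a secreted trefoil peptide, was at 24.6 ± 1.20 CPM with CKI and 6.53 ± 0.597 over the 6 mixture libraries. TNFRSF1B, a TNF receptor, was at 53.7, 54.6 and 54.8 CPM with CKI and between 16.1 and 18.4 CPM with the mixtures. With CKI down and the mixtures near UT they included C6orf132, at 30.4 ± 0.918 CPM with CKI against 150 ± 12.0 in UT, 155 ± 3.56 with OO and 167 ± 11.1 with MOO, AGR2, a disulfide isomerase of secretory cells, and SRSF3, a splicing factor, with log2 differences of 1.88 ± 0.089 and 1.43 ± 0.045.

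On the side of the mixtures, genes up with CKI near UT were DDIT3, CXCL8, KCP, BEX2, UPP1, ZNF165, SESN2 and HYOU1. UPP1, a uridine phosphorylase, was at 122, 115 and 105 CPM with CKI, between 112 and 124 CPM in UT, between 659 and 695 CPM with OO and between 458 and 480 CPM with MOO. Genes down with the mixtures and near UT with CKI included AQP3, a water and glycerol channel, at 18.6, 19.4 and 18.5 CPM with CKI, between 17.4 and 19.9 CPM in UT and between 1.98 and 3.73 CPM with the mixtures. VIPR1, a peptide hormone receptor, and CLDN2, a tight junction protein, differed from CKI by -2.07 ± 0.073 and -1.99 ± 0.083. The position of CKI near UT did not hold in batch 2 for all of these. There CKI lowered CXCL8 by a log2 fold change of -2.07, lowered KCP by -1.26 and raised AQP3 by 2.19, while CLDN2 was not called, at -0.17 ± 0.233.

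OO and MOO differ by macrozamin, and the 2 mixtures were close. Between them 1086 genes (7.28%) were called, 696 higher and 390 lower with MOO, and 26 (0.174%) changed by at least 2-fold. The count varied with the libraries used. It was 701, 641 and 637 without OO replicates 1, 2 and 3 and 693 without MOO replicate 3, and leaving out another library gave up to 1356. Mitosis genes were higher with MOO in 35 of 40 cases (background 4.66%) and none was lower in edgeR's test, with a median of 0.31, and DNA replication genes were higher in 23 of 38, with a median of 0.25. ER chaperones were lower in 4 of 16 (background 2.61%) and ATF4 and CHOP genes in 8 of 19, with medians of -0.13 and -0.16. Among the genes that rose most were SERTAD4, FAM111B, BMP4 and SAA1. BMP4 was at 57.2 ± 4.94 CPM with OO, 98.5 ± 5.71 with MOO and 308 ± 7.31 with CKI (SD, n = 3 each), and SERTAD4 differed by 0.98 ± 0.147. Those that fell most were IL6R, OASL, RPLP0P2, IL1A and HSPA6, with IL6R, the interleukin-6 receptor, at 7.56 ± 0.339 CPM with OO and 3.74 ± 0.353 with MOO (SD, n = 3 each). OASL and IL1A were the genes among these in which the MOO mean lay below that of CKI and the OO mean above it.

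Extracts from which the same compounds had been removed give the counterpart. N_2 is CKI without Omt and Ospc and N_3 is CKI without Mac, Omt and Ospc, in 3 libraries each of the same time and batch. No test was run on them here, and levels are scaled over the 18 libraries of batch 1 at 48 h. ANGPTL4 was at 51.9 ± 3.07 CPM with CKI, 51.4 ± 1.18 with N_2 and 45.3 ± 2.85 with N_3 (SD, n = 3 each). CYP1A1 was at 62.9 ± 1.24 CPM with CKI, 41.8 ± 2.36 with N_2 and 15.4 ± 2.28 with N_3. TM7SF2 was at 87.2 ± 1.22 CPM with CKI but 23.0, 27.6 and 27.0 with N_2 and 19.1, 29.8 and 18.0 with N_3, near its 21.3 ± 0.710 CPM in UT. AKR1C1 was at 66.4 ± 1.85 CPM with CKI, 458 ± 26.4 with N_2 and 412 ± 16.4 with N_3. HSPA5 was at 1493, 1620 and 1629 CPM with N_2 and at 3864, 3895 and 3634 CPM with N_3, both above the 812, 743 and 756 CPM of CKI. HSPA6 was at 264, 188 and 208 CPM with N_2, at 256, 218 and 246 CPM with N_3 and at 0.903, 1.03 and 0.649 CPM with CKI.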

How the data were processed

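RNA of MDA-MB-231 cells was sequenced by the study from oligo(dT)-selected mRNA as strand-specific paired reads on an Illumina HiSeq. The authors deposited raw counts of reads per gene, without normalization. Per the labels and the submitters' processing notes, the notes name FastQC 0.11.4, Trim Galore 0.3.7, STAR 2.5.3a, Subread 1.5.2 and edgeR 3.22.3 and the build hg19. The deposited table held 27978 genes, of which 3798 had no count, and every column was matched to a sample.

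The deposited counts of UT, CKI, OO and MOO at 48 h in batch 1 (12 libraries) were fitted with edgeR 4.0.16 (R 4.3.3, filterByExpr, TMM, quasi-likelihood test), and p-values were adjusted by Benjamini-Hochberg over all genes tested. CPM were computed from TMM-scaled library sizes. Fits of 12 libraries at 24 h and of 6 libraries of batch 2 were made alike. The contrast between times, the fits without CKI replicate 1 and OO replicate 1 at 24 h and the ERSE search were added after the data were seen. Alternatives used DESeq2 1.42.0, other scalings, filters, library sets and a replicate block. In simulated counts for the mixtures against CKI, 91.9% of 99 genes changed 2-fold and 71% of 100 genes changed by 0.5 on the log2 scale were recovered. Of 14520 unchanged genes 14 were called. Far fewer genes were changed there than the 9586 called in the data, so these rates need not hold for the data.

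Members and the 45 gene lists were chosen with earlier results of these data known. Named genes were first the 12 largest rises and falls with a mean of at least 10 CPM. These were called for OO and for MOO alike, with no overlap between CKI and mixture libraries. Further ones were up to 4 called genes per list and 8 per class of change from UT. The 5 largest changes each way between OO and MOO at a mean of at least 5 CPM, the core migration genes and ACTB were also taken. AHRR, ATF4, CALR, CANX, CRELD2, GCLM, MCM5, PDIA4, PHGDH, PSAT1, TIPARP, XBP1 and the ERSE genes fall outside this and were chosen after their values were seen. At 48 h replicate numbers did not pair libraries, as the correlation of deviations passed 0.1 in 1 of 18 pairs. At 24 h it passed 0.1 in 6 of 18 pairs, all among OO, MOO and UT, and ran from -0.639 to 0.432. These values do not settle whether numbers pair libraries at 24 h. Comparisons within a fit share their UT or CKI libraries. P-values measure the spread between libraries of 1 cell line. No promoter entry was used for CYP1B1, ALDH3A1, FDFT1, SQLE, PSPH, SLC7A11 and some other list members. Some genes that the rule names are not reported here.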

Additional observations from a re-analysis of the deposited data

Results flagged for a closer look

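Among the named genes, 7 had every mixture library on one side of every CKI library at 48 h and on the opposite side at 24 h. At 48 h all 7 were lower with the mixtures, and at 24 h all 7 were higher, with log2 differences of 0.32 for CCND1 (cyclin D1), 0.72 for CCNE2 (cyclin E2), 0.35 for FADS2 (a fatty acid desaturase), 0.73 for FAM111B (a protease of S phase), 0.96 for PER3 (a clock gene), 0.48 for RBL1 (a pocket protein of the cell cycle) and 0.57 for SERTAD4. The genes were picked for this opposite position in the same libraries, so the values are a description, and the difference between times was not tested independently of the choice. Without CKI replicate 1 and OO replicate 2 at 24 h, RBL1 was no longer called at 24 h by edgeR's test (adjusted p = 0.070).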

How the results depend on the processing

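Of the 215 genes taken by the naming rules and called between the mixtures and CKI at 48 h, none changed direction under the settings tried (edgeR and DESeq2). The 28 calls lost in single settings were of genes among these not named in the text. Genes not called in that comparison, and those named outside the rules, were not followed in this way. The number of genes called was 9586. With no single library left out and no fold change required, it lay between 7415 (all 54 libraries in the fit) and 9863 (no filter on low counts). It was 9218 by DESeq2, 9571 with RLE size factors, 9559 with library sizes alone and 1412 with a 2-fold change required. Leaving out 1 library gave 8805 to 9886 genes for the mixtures against CKI, 8357 to 9485 for OO, 7808 to 8928 for MOO, 637 to 1356 for MOO against OO, 8724 to 9631 for CKI against UT, 9473 to 10414 for the mixtures against UT and 1912 to 3524 for the mixtures against CKI at 24 h, where leaving out CKI replicate 1 with OO replicate 1 gave 4721 and with OO replicate 2 gave 3575. Scaling by library sizes alone moved the share of called genes higher than UT from 49.9% to 60.5% for the mixtures and from 49.3% to 59.2% for CKI, with the median of all genes at 0.11 and 0.084, and that for MOO against OO moved from 64.1% to 58.2%. With the replicate number as a block the count was 9522 for the mixtures against CKI at 48 h, 979 for MOO against OO and 2593 at 24 h, and the numbers were not taken as pairs. Of lists, the 27 mitosis genes called higher became 17 with all 54 libraries.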

Other observations

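Other gene lists, compared between the mixtures and CKI at 48 h, gave weaker pictures. Over all genes tested 32.7% were higher and 31.5% lower, and several of these counts were near those shares. Lysosome and autophagy genes were higher in 5 and lower in 15 of 23 cases (median -0.27), and relative to UT 19 rose with CKI (median 0.36). Of 22 respiratory chain genes 2 were higher and 12 lower (median -0.16). Of 15 NF-kB targets 7 were higher and 7 lower, and of 22 ERK output and AP-1 genes 7 were higher and 10 lower. YAP and TEAD targets were higher in 10 and lower in 3 of 16 cases (median 0.22). Of 24 apoptosis genes 8 were higher and 13 lower, and of 17 p53 targets 7 were higher and 3 lower, with GADD45A, a stress-induced growth arrest gene, at 325 ± 4.31 CPM with OO, 270 ± 2.99 with MOO and 112 ± 3.84 with CKI (SD, n = 3 each). SNAI1, a repressor of E-cadherin, was at 7.30 ± 0.493 CPM with CKI and 1.85 ± 0.514 over the 6 mixture libraries, and CDH1 was below UT with both CKI and the mixtures.

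ESRP1, an epithelial splicing factor that this line is known to lack, rose from 0.119 ± 0.0592 CPM with CKI to 1.26 ± 0.484 with OO and 0.923 ± 0.146 with MOO (SD, n = 3 each), while TFF1, another gene that the line is known to lack, was higher with CKI, at 3.20 ± 0.491 CPM, than with the mixtures, at 0.604 ± 0.0813 for OO and 0.536 ± 0.352 for MOO (SD, n = 3 each). IL1A rose from 0.630 ± 0.0878 CPM in UT to 10.6 ± 0.932 with CKI, 15.5 ± 1.39 with OO and 9.61 ± 1.58 with MOO (SD, n = 3 each) and was not called between the mixtures and CKI. In batch 2 its rise with CKI was 1.69 on the log2 scale, against 4.06 in batch 1.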
